A study of Mus musculus and Rattus norvegicus with 21 samples.

Results

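In thyroid glands of mice fed a low iodine diet, NKX2.1 occupied 3790 sites without PAX8 that overlapped the promoter-associated mark H3K4me3 in at least 1 of 4 thyroid libraries. These sites were 8.13% of the 46636 NKX2.1 peaks of the gland and 61.3% of the 6185 NKX2.1 peaks that lay in an H3K4me3 region. They were chosen by position alone: the 300 bp NKX2.1 peak overlapped none of the 51586 PAX8 peaks and overlapped, by at least 1 bp, 1 of the 21821 regions in the union of the H3K4me3 peaks of 4 libraries. The deposited lists of both factors are longer than the peak sets the study describes, and the step between them is unknown, so that peak totals, shares and the absence of PAX8 refer to the lists as deposited. The absence of PAX8 and the presence of H3K4me3 were therefore selected on and are not results. Below, the 3790 sites are called NKX2.1-only peaks, and they are compared with the 2395 NKX2.1 peaks in H3K4me3 regions that did overlap PAX8 (shared peaks) and with the 6023 PAX8 peaks in H3K4me3 regions without NKX2.1 (PAX8-only peaks). The name promoter held for most but not all of them: 2481 of the 3789 NKX2.1-only peaks on annotated chromosomes lay within 1 kb of a RefSeq start site, and 1308 lay farther away.

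The study asked how the transcription factors GLIS3, NKX2.1 and PAX8 share their binding sites in the thyroid, using chromatin immunoprecipitation and sequencing (ChIP-Seq). The NKX2.1 and PAX8 libraries came, per the labels, from thyroid glands of wild type (WT) C57BL/6 mice 1 month of age on a low iodine diet (LID), which raises thyroid-stimulating hormone (TSH). The study's methods instead name Glis3-EGFP mice, older and longer on the diet, for these libraries, so that factor and histone libraries may come from different animals. H3K4me3 and H3K27me3 were each profiled in 4 thyroid libraries, from WT mice on a normal diet (WT-ND), Glis3-deficient mice on a normal diet (Glis3KO-ND), and both genotypes on the low iodine diet (WT-LID and Glis3KO-LID). The labels give the C57BL/6 strain and an age of 1 month for all 4, and the allele of the Glis3KO mice, Glis3 tm2(mCherry)Amj in the labels, is named tm3 in the methods. Each group had 1 library, the sources used here do not say how many glands were pooled in it, and the lists hold intervals without height or read depth. No spread between animals could be computed, and the intervals below are 95% intervals that cover counting error over peaks only. Whole glands were used, so that a change in the cells of the gland and a change within thyrocytes cannot be told apart.

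NKX2.1 is a homeodomain transcription factor that, with the paired-domain factor PAX8, establishes and maintains the follicular cell of the thyroid, and the pair bind close to each other at the genes of thyroglobulin and the TSH receptor. Trimethylation of histone H3 at the lysine marked by H3K4me3 accompanies the start sites of active genes and of genes held ready. H3K27me3 is laid down by Polycomb complexes and accompanies silenced developmental genes, and regions with both marks are called bivalent.

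The central 100 bases of 10 NKX2.1-only peaks are given as examples (mm10, plus strand, no overlap with an annotated exon). Capitals mark matches to CAAGTG, the core recognised by NK2 homeodomain proteins, or to CTCAAG, a variant form of the NKX2.1 site, on either strand. Every example except Glis3 holds a match, which is not typical of the set. Of all NKX2.1-only peaks, 2196 (58%) held neither form anywhere in their 300 bp. The first 5 lie at genes of thyroid hormone handling and thyroid identity, Psmb7 encodes a proteasome subunit, Gng4 and Lingo1 carried H3K27me3 in both Glis3KO libraries, Scd2 lacked H3K4me3 only in Glis3KO-LID, and Glis3 is shown because its promoter peak held neither form.
Lrp2, chr2:69586159-69586258: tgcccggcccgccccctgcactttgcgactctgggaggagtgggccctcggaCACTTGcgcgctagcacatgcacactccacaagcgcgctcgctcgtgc
Iyd, chr10:3541994-3542093: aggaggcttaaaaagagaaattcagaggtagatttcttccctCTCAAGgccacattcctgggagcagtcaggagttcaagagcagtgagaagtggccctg
Nkx2-1, chr12:56535196-56535295: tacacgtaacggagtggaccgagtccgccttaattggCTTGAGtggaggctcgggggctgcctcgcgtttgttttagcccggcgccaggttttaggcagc
Foxe1, chr4:46349027-46349126: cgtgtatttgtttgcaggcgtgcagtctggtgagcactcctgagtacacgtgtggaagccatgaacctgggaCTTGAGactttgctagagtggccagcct
Txn1, chr4:57956661-57956760: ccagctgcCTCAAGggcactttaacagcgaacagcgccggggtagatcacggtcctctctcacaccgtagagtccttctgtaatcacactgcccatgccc
Psmb7, chr2:38643978-38644077: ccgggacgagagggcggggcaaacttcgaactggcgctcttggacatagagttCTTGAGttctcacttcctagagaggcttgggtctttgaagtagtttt
Gng4, chr13:13784140-13784239: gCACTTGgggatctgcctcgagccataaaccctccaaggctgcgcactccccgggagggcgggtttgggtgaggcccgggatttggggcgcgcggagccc
Lingo1, chr9:56636435-56636534: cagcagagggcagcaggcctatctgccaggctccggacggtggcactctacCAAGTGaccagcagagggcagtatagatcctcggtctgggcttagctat
Scd2, chr19:44295324-44295423: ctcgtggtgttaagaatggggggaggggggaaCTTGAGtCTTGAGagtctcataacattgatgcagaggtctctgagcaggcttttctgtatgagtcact
Glis3, chr19:28680172-28680271: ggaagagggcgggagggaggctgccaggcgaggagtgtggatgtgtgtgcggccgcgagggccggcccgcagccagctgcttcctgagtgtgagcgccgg
The Scd2 sequence held 2 copies of the variant form separated by a single base.

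NKX2.1-only peaks clustered just upstream of start sites. Of the 3789 annotated peaks, 65.5% (95% interval 64 to 67) had their midpoint within 1 kb of a start site, compared with 56.4% of shared peaks and 71.6% of PAX8-only peaks. The difference was 9.07 percentage points from shared peaks (95% interval 6.57 to 11.6) and -6.14 points from PAX8-only peaks (-8.04 to -4.25). The first of these was 3.24 points with no PAX8 peak allowed within 1 kb, 3.69 points with H3K4me3 of WT-LID alone, and 0.366 points (-2.13 to 2.97) among peaks with H3K4me3 in each of the 4 libraries, where it could not be told from 0, while the second was -2.57 points there (-4.38 to -0.806). The median distance to the nearest start site was 563 bp (519 to 605), with quartiles of 137 and 1872 bp, beside medians of 766 bp for shared and 374 bp for PAX8-only peaks. NKX2.1 peaks without PAX8 outside H3K4me3, of which there were 19162, had a median distance of 26836 bp. The rule selects H3K4me3, which accompanies start sites, so nearness to start sites follows in part from the rule. The contrast with peaks outside H3K4me3 is therefore a description and not a result.

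The side of the start site also differed. Midpoints 1 to 250 bp upstream made up 22.9% of NKX2.1-only peaks and midpoints less than 250 bp downstream 11.5%, whereas PAX8-only peaks fell about equally on both sides, at 20.8% and 20.2%. On the downstream side the difference between NKX2.1-only and PAX8-only peaks was -8.69 points (-10.1 to -7.24), and that between NKX2.1-only and shared peaks was 0.427 points, with an interval that included 0 (-1.22 to 2.02). Within 1 kb of a start site, 1390 of 2481 NKX2.1-only peaks lay upstream (56%, 54.1 to 58), against 43.6% of PAX8-only peaks (42.2 to 45.1) and 54.6% of shared peaks (51.9 to 57.2). By annotation, 44.5% of NKX2.1-only peaks had an intergenic midpoint, 39.9% an intronic one, 10.5% lay in a 5' UTR and 2.24% in a coding exon. Compared with PAX8-only peaks, the difference was -6.49 points for the 5' UTR and -7.65 points for coding exons. A pair of divergent genes flanked 8.31% of NKX2.1-only peaks, against 8.77% of PAX8-only peaks.

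**Figure D1:**
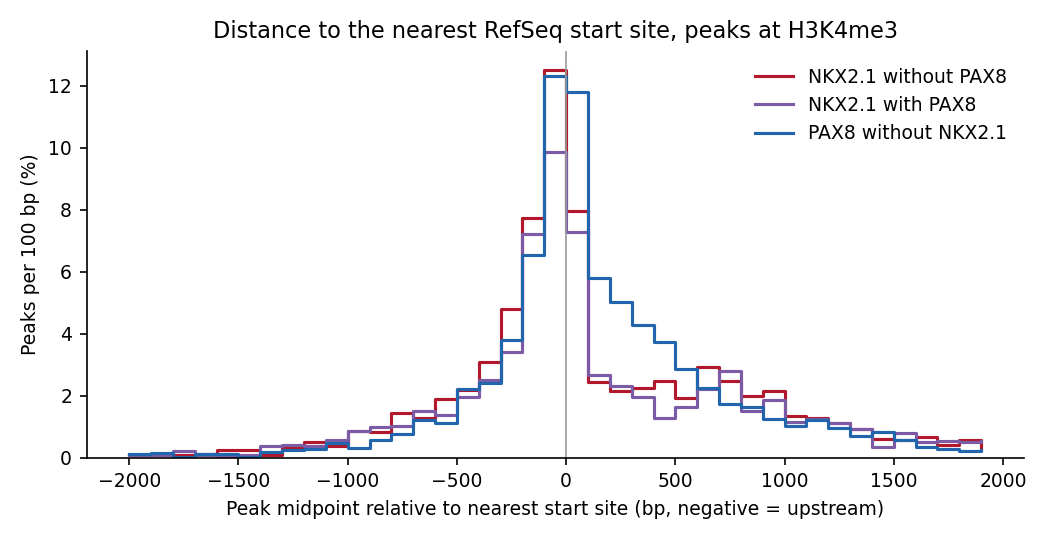
Share of peaks (%) per 100 bp of distance between peak midpoint and nearest RefSeq start site (bp, upstream negative), for NKX2.1-only, shared and PAX8-only peaks in H3K4me3 regions. The line of NKX2.1-only peaks is highest in the 100 bp just upstream, at 12.5%, and falls to 2.43% at 100 to 199 bp downstream, where that of PAX8-only peaks is at 5.81%.

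Inside the H3K4me3 region the NKX2.1-only peaks were spread more evenly than PAX8-only peaks, which gathered at its centre. Of the 3413 NKX2.1-only peaks whose midpoint fell inside the region, 41.4% (39.8 to 43.1) lay in its central 40% and 14.4% in its outer 20%, which an even spread would put at 40% and 20%. For PAX8-only peaks the central share was 54.5%, a difference of -13.1 points (-15.2 to -11), and for shared peaks it was 43.6%, a difference of -2.17 points (-4.9 to 0.553) that could not be told from 0. The median distance from midpoint to the nearer region edge was 411 bp for NKX2.1-only, 323 bp for shared and 596 bp for PAX8-only peaks. Another 377 NKX2.1-only peaks touched the region with their flank only, their midpoint lying outside. Examples were Cldn3, whose peak lay at the upstream edge of a 4119 bp region, and Srxn1, encoding sulfiredoxin, at the edge of a 1906 bp region.

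**Figure D2:**
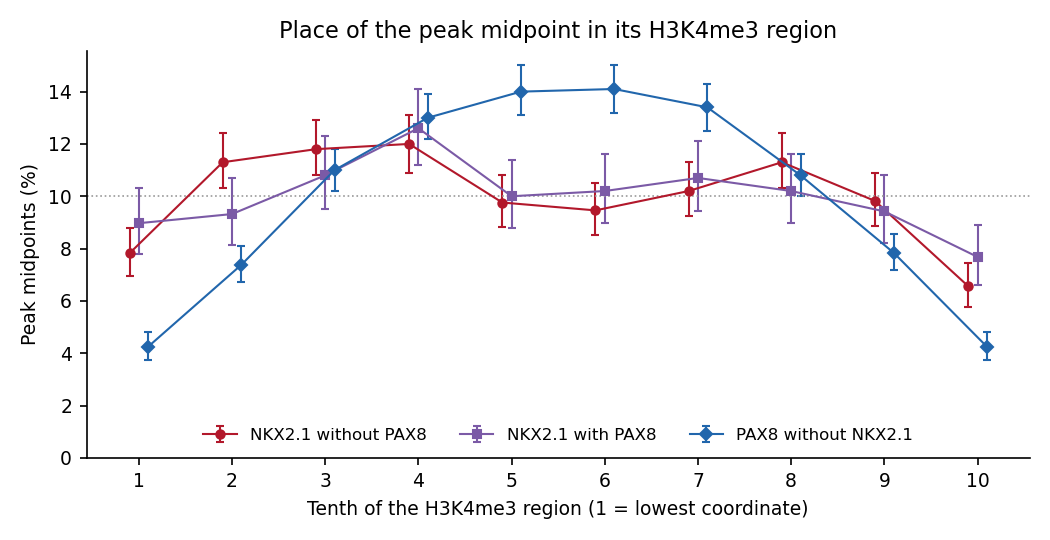
Share of peak midpoints (%) in each of 10 equal parts of the H3K4me3 region, ordered by coordinate, for NKX2.1-only, shared and PAX8-only peaks with 95% Wilson intervals. The dotted line at 10% is an even spread. NKX2.1-only peaks stay between 6.56% and 12%, and PAX8-only peaks rise towards the middle.

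The NKX2.1-only peaks fell in 3586 of the 21821 H3K4me3 regions, 3380 of them with 1 such peak, 203 with 2 and 3 with 3. The median width of these regions was 1860 bp, against 1442 bp for all H3K4me3 regions and 1108 bp for the 11851 without a peak of either factor. Width was not particular to them. Counted per peak, the median region width was 1894 bp for NKX2.1-only, 1778 bp for shared and 2048 bp for PAX8-only peaks. A wider region also has more room for a peak of any kind. In 2390 of the 3586 regions (66.6%) no PAX8 peak was present at all, and in 1196 (33.4%) a PAX8 peak lay elsewhere in the same region. The 3 regions with 3 peaks were at Spag9, a scaffold protein of kinase signalling, at Cep120, a centriole protein, and at the divergent pair Uqcr10 and Zmat5, encoding a subunit of respiratory complex III and a zinc finger protein. At Zmat5 the midpoints lay at -711, 11 and 698 bp from the start site in a region of 2616 bp, and the nearest PAX8 peak was 76724 bp away. Across all NKX2.1-only peaks the nearest PAX8 peak was at a median of 4208 bp (quartiles 667 and 14880 bp), and 1166 (30.8%) had one within 1000 bp. At the boundary of the rule, 108 NKX2.1-only peaks had a PAX8 peak 0 to 50 bp away while 120 NKX2.1 peaks at H3K4me3 overlapped one by 50 bp or less, and 102 overlapped the H3K4me3 region by 50 bp or less while 79 others without PAX8 missed a region by 0 to 50 bp.

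The lists of thyroid genes were short, and the interval of each included the share of 18.1% found over all genes with H3K4me3 at the start site. Several NKX2.1-only peaks at thyroid genes lay deeper in the gene's H3K4me3 region. None of 11 genes of thyroid hormone synthesis and none of 8 TSH-induced genes had one within 1 kb of a start site, whereas 2510 of all 21000 protein-coding genes did (12.0%), or 18.1% of the 13845 genes with H3K4me3 at the start site. For a list of 11 genes a count of 0 allows a share of up to 25.9%, and for a list of 8 genes up to 32.4%. Shared peaks were present within 1 kb at genes of both lists, among them Tg (thyroglobulin), Tshr (the TSH receptor) and Duoxa2, and the TSH-induced Adm2, Cdh16 and Sod3, which are named here after their values were seen. The rule decides to which set a peak belongs, so this division is a description.

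Farther from the start site but in the same H3K4me3 region, the 5 thyroid genes that follow carried an NKX2.1-only peak (genes named after their values were seen). Slc5a5, the sodium iodide symporter that brings iodide into the thyrocyte, had one in an intron 1145 bp downstream (chr8:70891462-70891761), with an NK2 core. The H3K4me3 peak over it was 1371 bp wide in WT-ND and 2320 bp wide in WT-LID, and no H3K4me3 peak covered it in Glis3KO-ND or Glis3KO-LID. An H3K27me3 peak of 2344 bp covered the whole NKX2.1 peak in Glis3KO-LID and in no other library, and the H3K27me3 list of that library was also the longest by far. A called H3K4me3 peak thus reached this NKX2.1-only peak in both WT libraries and in neither Glis3KO library. This describes how far called peaks extended, and whether the start site of the gene lost the mark was not tested. The study reports small changes in both marks at the Slc5a5 proximal promoter between WT and Glis3KO glands.

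Iyd, the deiodinase that recycles iodide from iodotyrosines, had an NKX2.1-only peak 1770 bp downstream in an intron, within H3K4me3 that was present in all 4 libraries at 2506 to 3891 bp. The factors themselves were among these genes. Nkx2-1 carried 2 such peaks, 1662 and 7336 bp downstream, in a region of 12380 bp. The H3K4me3 peak over the nearer of them was 10517 bp wide in WT-ND and 5535 to 6565 bp wide in the other libraries. Pax8 had a peak 2252 bp downstream with H3K4me3 of 4392 to 5907 bp in all 4 libraries. Foxe1, a forkhead factor of thyroid development, had one 5433 bp downstream at the far end of a 7447 bp region. The H3K4me3 peak over it was 7447 bp in WT-LID, 7231 bp in WT-ND and 7142 bp in Glis3KO-ND, and none reached it in Glis3KO-LID.

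Close to start sites, the thyroid lists gave the following genes. Glis3, a Krüppel-like zinc finger factor, had an NKX2.1-only peak 145 bp upstream of a start site (chr19:28680072-28680371), with a PAX8 peak 445 bp away and H3K4me3 of 2676 to 3265 bp in every library. Lrp2, the endocytic receptor megalin, which takes up thyroglobulin, had one 180 bp upstream with an NK2 core, 202 bp from a PAX8 peak. The H3K4me3 peak over Lrp2 was 2394 bp (WT) and 1524 bp (Glis3KO) on the LID and 3709 bp (WT) and 3534 bp (Glis3KO) on the ND, so that both LID libraries were narrower than both ND libraries. Ctsl, the protease cathepsin L, had one 86 bp downstream that abutted a PAX8 peak with 0 bp between them. Txn1, thioredoxin, had one 300 bp upstream, with H3K4me3 of 3146 to 3648 bp in the other libraries and none over it in Glis3KO-LID. Gnas, the stimulatory G protein subunit downstream of the TSH receptor, had one 82 bp upstream of a start site, and H3K4me3 over it was 4770 to 5363 bp wide.

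Of 15 genes of cAMP signalling, the pathway through which TSH acts, 5 had an NKX2.1-only peak within 1 kb (33.3%, 15.2 to 58.3, an interval that includes the 18.1% of genes with H3K4me3): Creb1 and Atf1, factors that bind the cAMP response element, Prkacb, a catalytic subunit of protein kinase A, Rap1a, a small GTPase, and Gnas. The Creb1 peak lay 32 bp into the gene with the nearest PAX8 peak 68363 bp away, while at Prkacb the peak lay 987 bp downstream. H3K4me3 over the Rap1a peak was 1572 to 1797 bp in WT-ND, Glis3KO-ND and WT-LID and missing in Glis3KO-LID. Among 12 immediate early genes, Jun and Junb, subunits of AP-1, had peaks 41 and 39 bp downstream, and Dusp1, a MAP kinase phosphatase, and Egr2, a zinc finger factor, had peaks 405 and 430 bp upstream. Over the Egr2 peak an H3K27me3 peak of 8946 bp was present in Glis3KO-LID only, with H3K4me3 in all 4 libraries.

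Genes of general cell function made up the longer lists, and their shares stand beside the 18.1% of all genes with H3K4me3. Of 85 genes of the respiratory chain and ATP synthase, 23 had an NKX2.1-only peak within 1 kb (27.1%, 18.8 to 37.3), among them Uqcrb, Sdhb, Cox8a and Atp5h, all within 27 bp of the start site. The cytosolic ribosomal proteins had 18 of 85 (21.2%, 13.8 to 31), with Rpl11 at 1 bp and Rps9 at 23 bp from the start site, and the mitochondrial ribosomal proteins had 10 of 77 (13%, 7.21 to 22.3). Translation initiation factors had 10 of 32, including Eif3e and Eif3m of the eIF3 complex, and the core proteasome had 9 of 31, including Psmd12, 4 bp upstream, and Psmb7, 122 bp upstream. Of 64 replication-dependent histone genes 18 had one (28.1%, 18.6 to 40.1), in 17 separate peaks, and H4c2, H3c13 and H1f6 each had an NK2 core in theirs. The H3K4me3 over these histone genes was narrow, 501 to 824 bp at H4c2, and present in Glis3KO-LID alone at H3c13, where it was 628 bp wide.

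Lists of the epithelium, growth signalling and secretion were shorter, and their shares too stand beside the 18.1% of genes with H3K4me3. Epithelial adhesion had 5 of 12 genes (41.7%, 19.3 to 68), among them Cldn3 and Cldn7, tight junction claudins, and Krt8 and Krt19, keratins of simple epithelia. The Cldn3 peak, 289 bp upstream, was overlapped by H3K4me3 of 4014 bp in WT-ND and 3487 bp in WT-LID and by none in either Glis3KO library. The Krt8 peak was overlapped in WT-ND alone, at 2066 bp. Both touched the H3K4me3 region with their flank only. A missing overlap there shows that no called peak reached the flank, not that the gene lacked the mark. The mTORC1 and autophagy list had 6 of 16 (37.5%, 18.5 to 61.4), with Mtor itself 184 bp upstream, its partner Rptor 72 bp downstream, Akt1s1, and Tsc1, where H3K4me3 was missing in WT-LID only. Genes of the endoplasmic reticulum and the unfolded protein response had 5 of 20, among them Calr, a chaperone, P4hb, a disulfide isomerase, Ddit3 and Eif2ak3. The Ddit3 peak held 3 copies of the variant NKX2.1 form, and H3K4me3 over it was 4551 bp in WT-ND and 1502 to 2313 bp elsewhere. Eif2ak3, the PERK kinase, had H3K4me3 over its peak in both ND libraries and in neither LID library. Transport from the endoplasmic reticulum to the Golgi had 6 of 20, with Sec13, Arf4, Cope and Gbf1 nearest to their start sites.

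Smaller counts were found at chromatin and other lists. For each list here with at least 1 such gene, the interval included the 18.1% of genes with H3K4me3 at the start. Polycomb components and H3K27 demethylases had 5 of 20, among them Ezh2, the H3K27 methyltransferase, with a peak holding an NK2 core 61 bp from a PAX8 peak, and Cbx2, which carried H3K27me3 of 7482 bp in Glis3KO-LID alone. Enzymes and complex subunits that add or remove H3K4 methylation had 4 of 16 (the subunits Men1, Dpy30 and Rbbp5 and the demethylase Kdm5a), Mediator 6 of 30, with Med19 nearest to its start site, and the Hippo list 3 of 12 (Nf2, Sav1, Tead1). Peroxide defence had 4 of 20, Cat, Nfe2l2, Txn1 and Srxn1, and at Srxn1 as at Txn1 no H3K4me3 covered the peak in Glis3KO-LID. Glycolysis had 3 of 14 (Tpi1, Gapdh, Gpi1), the cell cycle 2 of 14 (Cdk2, Top2a) and the extracellular matrix 4 of 21 (Itgb4, Col6a2, Col4a1, Col4a2), where a single peak in an intron of Col4a1 was counted for the last 2, 781 bp downstream of the Col4a1 start and 760 bp upstream of the divergent Col4a2 start. No Hox gene of 39 had one (0 to 8.97%, an interval below the 18.1%), and 31 of the 39 had H3K4me3 at the start. None of 8 inflammatory chemokines and cytokines had an H3K4me3 region at its start, so that the rule left no room for one there.

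Markers of the cells in the gland were counted in the same way. None of 13 follicular markers had an NKX2.1-only peak within 1 kb (0 to 22.8%, an interval that includes the 18.1% of genes with H3K4me3), and 6 had a shared peak there. Farther away in the H3K4me3 region of the start site, 5 of the 13 had an NKX2.1-only peak (Foxe1, Iyd, Nkx2-1, Pax8 and Slc5a5). Of the other cell types, 1 of 11 C cell markers (Chgb, chromogranin B) and 1 of 12 endothelial markers (Flt1, a VEGF receptor) had one, and none of the 5 parathyroid, 13 immune, 12 fibroblast, 8 adipocyte and 12 skeletal muscle markers did. Chgb had an H3K4me3 peak of 501 bp in WT-LID alone and an H3K27me3 peak of 1810 bp in Glis3KO-LID, and Flt1 had H3K4me3 in all 4 libraries with H3K27me3 of 10048 bp in Glis3KO-LID. None of the 13 immune markers had an H3K4me3 region at its start, whereas all 13 follicular markers did. Such a region was at 3 of 5 parathyroid, 6 of 12 fibroblast, 4 of 8 adipocyte and 2 of 12 skeletal muscle markers. It was at 7 of 11 C cell and 11 of 12 endothelial markers. The rule thus left limited room in several of these short lists.

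**Figure D3:**
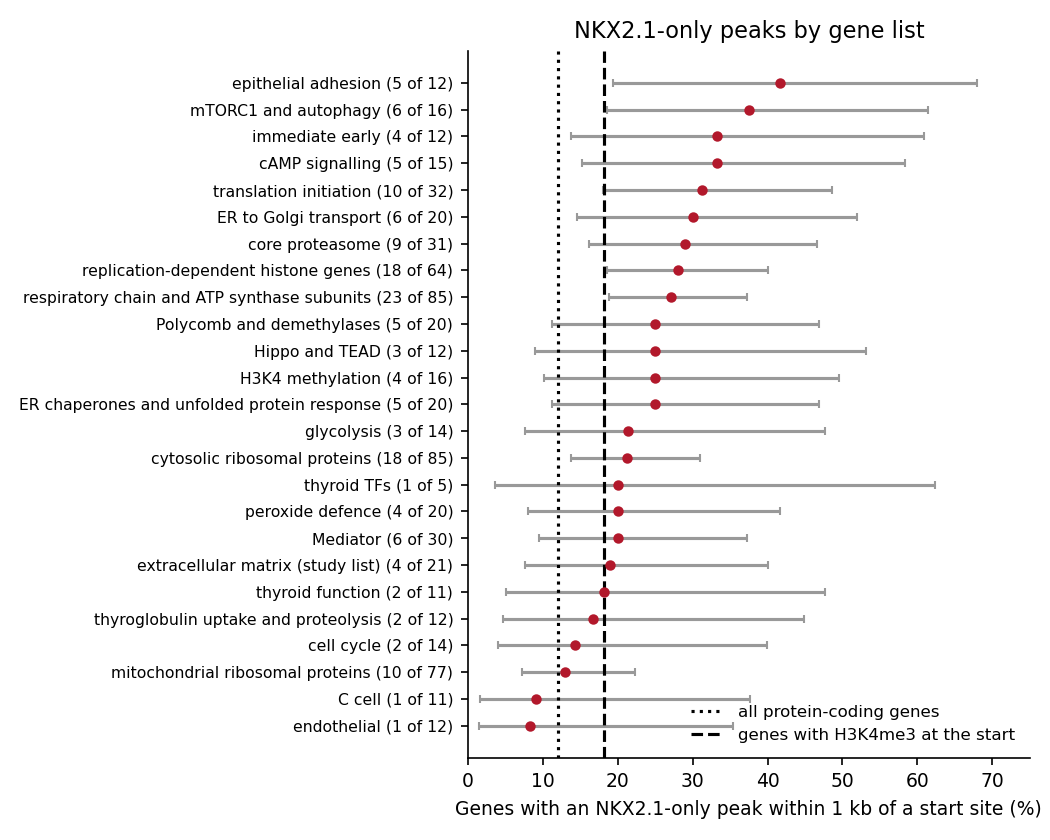
Share of genes (%) in each list with an NKX2.1-only peak within 1 kb of a start site, with 95% Wilson intervals and counts beside the names, for the lists with at least 1 such gene. The dotted line is the share over all protein-coding genes (12.0%) and the dashed line that over genes with H3K4me3 at the start (18.1%). Epithelial adhesion is highest at 41.7% of 12 genes, with an interval of 19.3 to 68.

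Of the 2510 genes with an NKX2.1-only peak within 1 kb, 2383 had 1, 126 had 2 and only Zmat5 had 3. A PAX8 peak lay within 1 kb of a start site at 840 of them (33.5%), and 1216 (48.4%) had none within 5 kb. Among genes with 2 were Abca1, the cholesterol exporter, at -114 and 329 bp, and Accs, at -6 and 598 bp, each of the Accs peaks holding an NK2 core. Acin1 and Acyp1 had their 2 peaks at separate start sites in separate H3K4me3 regions.

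The H3K4me3 state of the NKX2.1-only peaks by library follows in part from the rule, which required the mark in at least 1 of the 4, and it is given without a test. H3K4me3 covered 3138 of the 3790 peaks in WT-ND (82.8%), 3084 in WT-LID (81.4%), 3036 in Glis3KO-ND (80.1%) and 2776 in Glis3KO-LID (73.2%). All H3K4me3 regions had the same order at the low end, with 77.3%, 76.4%, 75.2% and 70.6% present in the same libraries, and the Glis3KO-LID list was also the shortest, with 15692 peaks against 16590 to 17044. A region counted as marked when a library's peak lay anywhere in it. An NKX2.1-only peak counted only when its own 300 bp were overlapped, so these shares are unlike measures. A narrower H3K4me3 peak could leave an NKX2.1-only peak near the region edge uncovered. The median width of the H3K4me3 peak over an NKX2.1-only peak was 1711, 1769, 1687 and 1577 bp in that order. In all 4 libraries together 2335 peaks (61.6%) carried the mark, and in a single library 663 (17.5%). The commonest incomplete pattern was no H3K4me3 over the peak in Glis3KO-LID alone, with 244 peaks (6.44%, beside 4.38% of all regions, scored over their full width). It was followed by the mark in WT-ND alone with 227 (5.99%, against 7.69% of all regions) and in WT-LID alone with 164 (4.33%, against 5.99%).

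Genes of the pattern without H3K4me3 only in Glis3KO-LID, taken by width, were Foxe1, Elfn1, Kmt2e, an H3K4 methyltransferase relative, Ucp2, a mitochondrial carrier, and Scd2, a fatty acid desaturase, whose peak had 4406, 4200 and 3065 bp of H3K4me3 in WT-ND, Glis3KO-ND and WT-LID. In both WT and neither Glis3KO library the mark covered 92 peaks (2.43%, beside 2.02% of all regions), led by Kcnk5, a potassium channel (4822 and 4235 bp), Cldn3 and Sorbs3. The reverse, both Glis3KO and neither WT, held 39 (1.03%, beside 0.949%), led by Usp9x (3003 and 2974 bp), Pcnx and Zc3h10, and included Id4, an inhibitor of helix-loop-helix factors. By diet, 73 peaks (1.93%, beside 1.87%) had H3K4me3 in both ND libraries only, led by Kcnh3 and Chd3 and including Xbp1, a factor of the unfolded protein response (3267 and 2767 bp), and 32 (0.844%, beside 1.08%) in both LID libraries only, led by Nfia and including Acbd5 and Fzd6. These 4 shares stood near those of all regions, which were scored over their full width, so the genes are given as examples. With 1 library per group the patterns have no replicate check.

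The distance to a start site divided the NKX2.1-only peaks in several respects. The 2481 peaks within 1 kb lay in regions with a median width of 2045 bp, and 79.4% of them had H3K4me3 in all 4 libraries. The 1308 farther away lay in regions of 1184 bp, 28% had the mark in all 4 and 41% in a single library. They were 50.7% GC, against 55.3% for the near peaks, and 54.5% were intronic. Annotated predicted transcripts placed a start site within 1 kb of 208 of them. Their NK2 core share was 27.3% against 19% near start sites, a difference of -8.27 points (near minus far, -11.2 to -5.43), and the SP site GGGCGGG showed the opposite, 11.5% against 29.9%, a difference of 18.4 points (15.9 to 20.9).

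H3K27me3, which the rule did not use, was rare at NKX2.1-only peaks. It covered 171 of the 3790 in Glis3KO-LID (4.51%, 3.9 to 5.22), 29 in WT-LID (0.765%, 0.533 to 1.1), 37 in Glis3KO-ND (0.976%, 0.709 to 1.34) and 24 in WT-ND (0.633%, 0.426 to 0.941). NKX2.1 peaks without PAX8 outside H3K4me3 were covered less often, at 1.47%, 0.125%, 0.219% and 0.167% in the same order. Over all 6185 NKX2.1 peaks at H3K4me3 the shares were 4.07%, 0.647%, 0.905% and 0.582% in the same order. PAX8-only peaks were covered more often in every library, at 10.9%, 3.42%, 4.75% and 3.2%, with differences from -2.57 points in WT-ND (-3.09 to -2.05) to -6.38 points in Glis3KO-LID (-7.4 to -5.34), the latter -3.52 points (-4.27 to -2.75) with lists cut to equal length. Against shared peaks the intervals included 0 in 3 libraries, and in Glis3KO-LID the difference was 1.13 points (0.119 to 2.09), which fell to 0.406 points (-0.346 to 1.11) with lists of equal length. The Glis3KO-LID list held 18040 H3K27me3 peaks over 55.1 Mb, against 2631 to 4116 peaks over 7.47 to 13.3 Mb. With each list cut to its 2631 widest peaks, the shares were 2.24%, 0.765%, 0.871% and 0.607%, with Glis3KO-LID still highest. The cut made the lists equal in number but not in covered bases. It kept the whole WT-LID list and only the widest of the 18040 peaks of Glis3KO-LID, so it cannot separate these shares from the size of the list.

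**Figure D4:**
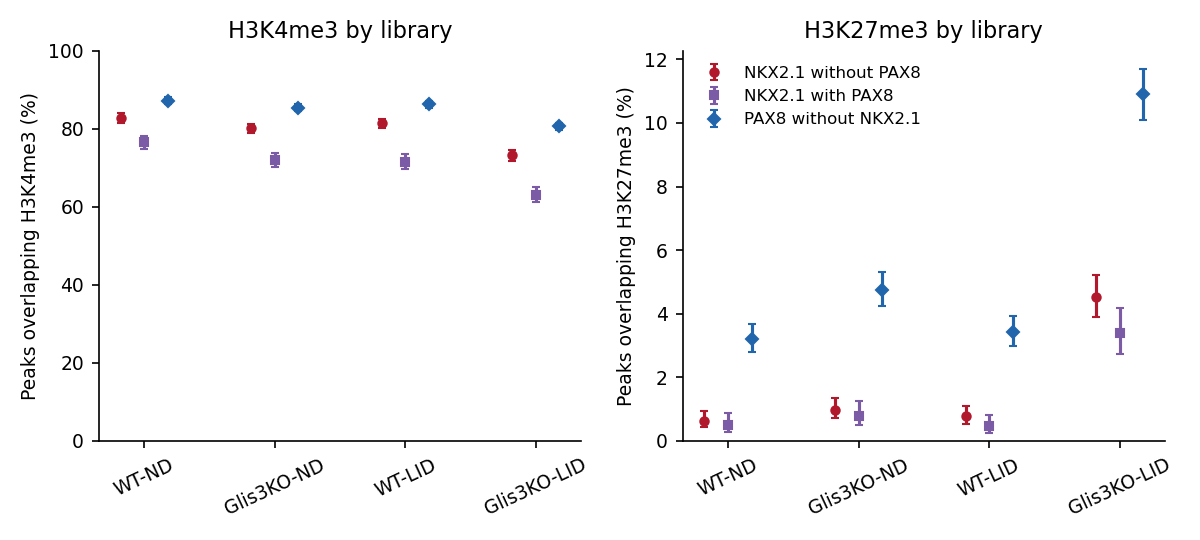
Share of peaks (%) that overlapped an H3K4me3 peak (left) or an H3K27me3 peak (right) in each of the 4 thyroid libraries, with 95% Wilson intervals, for NKX2.1-only, shared and PAX8-only peaks in H3K4me3 regions. H3K4me3 is lowest and H3K27me3 highest in Glis3KO-LID for all 3 sets, and NKX2.1-only peaks sit below PAX8-only peaks in both panels.

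Of the 172 NKX2.1-only peaks with H3K27me3 in any library, 116 had it in Glis3KO-LID alone, and 70 of these had H3K4me3 in all 4 libraries. In a WT library it covered 39, of which 38 also had it in Glis3KO-LID and none lacked it in both Glis3KO libraries. Both marks covered the same NKX2.1-only peak in the same library at 127 peaks in Glis3KO-LID, 23 in WT-LID, 28 in Glis3KO-ND and 20 in WT-ND. These 172 peaks were within 1 kb of a start site in 53.5% of cases, against 66% of the others, and had a median GC content of 56.2% against 53.3%.

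In all 4 libraries H3K27me3 covered 10 NKX2.1-only peaks. They were nearest to Sox21, Lmx1b, Isl2 and Meis1, which encode developmental transcription factors, Gdnf, a neurotrophic factor, Kcnj4, a potassium channel, Ajm1, an apical junction protein, the long noncoding RNA Crnde, and the microRNA genes Mir124a-3 and Mir7-2. The start site lay within 1 kb for 7 of them and was 3911 bp away for Isl2, 4698 bp for Mir7-2 and 141449 bp for Meis1. The peak at Sox21 lay 87 bp upstream with H3K27me3 of 30994 bp in Glis3KO-LID, 14611 bp in WT-LID, 15166 bp in Glis3KO-ND and 13372 bp in WT-ND, and with H3K4me3 in all 4. Lmx1b had H3K27me3 of 22043 to 23105 bp in 3 libraries and 51597 bp in Glis3KO-LID, with H3K4me3 in WT-ND only. At Gdnf the H3K27me3 peak was 6926 to 10703 bp wide and at Crnde 10939 to 20029 bp. The widest peak was in Glis3KO-LID at 9 of the 10, the exception being the peak with Meis1 as its distant nearest gene, where it was 7438 bp in Glis3KO-ND and 3485 to 3951 bp elsewhere.

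H3K27me3 of both Glis3KO libraries, but of no WT one, covered 17 NKX2.1-only peaks. The 10 with the most covered bases, ties in alphabetical order, had as nearest genes Ascl5, Olig3 and Tfap2c, developmental factors, Dll3, a Notch ligand, Lingo1, a neural membrane protein, Gng4, a G protein subunit, Rassf2, Podn, Gm20554 and Gm27252. Of these, 7 had the start site within 1 kb, while it was 2366 bp away for Dll3, 5209 bp for Olig3 and 140688 bp for Gm27252. At Gng4 the mark was 5508 bp in Glis3KO-LID and 2732 bp in Glis3KO-ND, and H3K4me3 was present in all 4 libraries at 1599 to 2088 bp. Tfap2c had 11987 and 7815 bp of H3K27me3 in the same order and Olig3 12381 and 11487 bp. The mark was wider in Glis3KO-LID than in Glis3KO-ND at all 17.

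The sequence of the NKX2.1-only peaks was searched for NKX sites. The NK2 core CAAGTG was found, on either strand, in 829 of 3789 peaks (21.9%, 20.6 to 23.2), beside 13.6% of 32817 RefSeq promoter sequences of the same 300 bp, and the variant CTCAAG in 27.6% beside 15.9%. At least 1 of both forms, which can overlap as CTCAAGTG, was in 42%, and 2196 peaks (58%) held neither. Shared peaks held the NK2 core slightly more often, at 24.5%, a difference of -2.63 points (-4.81 to -0.478), and the interval included 0 among peaks of 50 to 60% GC (-2.93 points, -6.14 to 0.227), with H3K4me3 of WT-LID alone (-2.4 points, -4.86 to 0.0119) and with H3K4me3 in each library (-1.58 points, -4.41 to 1.16). PAX8-only peaks held it in 13.5%, a difference of 8.41 points (6.85 to 10), which was 3.73 points (1.07 to 6.41) among peaks of 50 to 60% GC. NKX2.1 peaks without PAX8 outside H3K4me3 held it in 33.1%. In NKX2.1-only peaks, matches per base were 1.83 times as dense in the central 100 bp as in the flanks for the NK2 core and 2.27 times for the variant, beside 1.36 and 1.23 times in PAX8-only peaks.

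Sites of other factors were compared in the same way. The paired-domain cores GCGTGAC and GCATGAC, parts of the PAX8 site, were in 1.74% and 1.53% of NKX2.1-only peaks, beside 2.09% and 2.17% of promoters, and in 7.64% and 3.55% of PAX8-only peaks. With either core counted, NKX2.1-only peaks held 3.22% and shared peaks 6.97%, a difference of -3.75 points (-4.96 to -2.62). Of general promoter elements, the CCAAT box CCAATNA was in 14.4% of NKX2.1-only peaks, higher than in shared peaks by 4.03 points (2.35 to 5.66) and than in PAX8-only peaks by 4.95 points (3.63 to 6.31), beside 15.5% of promoters. The ETS site CCGGAAG was in 11.1%, 2.64 points above shared peaks (1.11 to 4.11). Over all GC contents it was not separable from PAX8-only peaks (0.633 points, -0.617 to 1.91). Among peaks of 50 to 60% GC it was in 12.1% of NKX2.1-only peaks (10.6 to 13.7) and 8.29% of PAX8-only peaks (7.12 to 9.64). At 60 to 100% GC the shares were 18.8% (16.4 to 21.5) and 13.4% (12.3 to 14.6). At 30 to 50% GC they were 4.41% and 3.33%, with overlapping intervals. The SP site was in 23.5%, above shared peaks by 5.13 points (3.05 to 7.17) and at -5.5 points from PAX8-only peaks. Within GC bands its order against PAX8-only peaks was the reverse. It was 5.45% against 2.71% at 30 to 50% GC, 19.8% against 14% at 50 to 60% and 55.9% against 43.6% at 60 to 100%. The forkhead site TGTTTAC (3.43%) and GTGGGGGG, part of the GLIS site (3.3%), stood beside promoter shares of 3.65% and 3.96%. A match is a description of the letters, not a bound site.

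**Figure D5:**
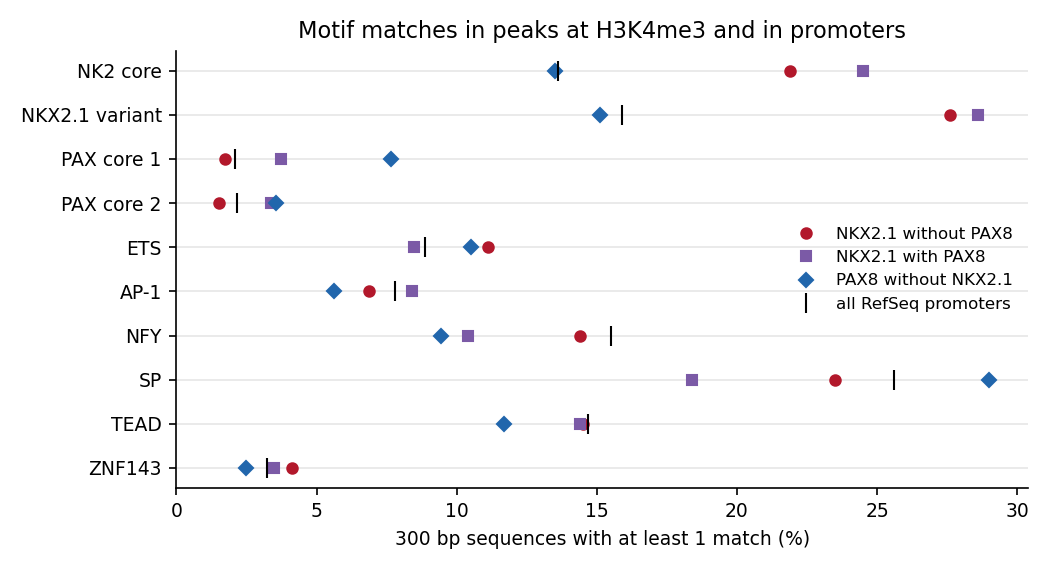
Share (%) of 300 bp sequences with at least 1 match, on either strand, to each of 10 motifs in NKX2.1-only, shared and PAX8-only peaks, with all RefSeq promoters as a vertical tick. NKX2.1-only peaks lie near shared peaks for the NK2 core and its variant (21.9% and 27.6%), and have the lowest share of both PAX cores.

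The base composition of NKX2.1-only peaks lay closer to that of shared than of PAX8-only peaks. Their median GC content was 53.3% (53 to 53.7), against 54% (53.7 to 54.3) for shared peaks, 61.3% (61 to 61.7) for PAX8-only peaks and 46.3% for NKX2.1 peaks without PAX8 outside H3K4me3. The ratio of observed to expected CpG had a median of 0.511 (0.498 to 0.524), above the 0.451 of shared peaks and below the 0.719 of PAX8-only peaks.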

How the data were processed

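ChIP-Seq was performed on mouse thyroid glands. Per the submitters' processing notes and the study's methods, the authors trimmed reads with cutadapt 1.12, aligned them to mm10 with Bowtie 1.2, removed duplicates with Picard and called peaks per library with HOMER 4.10.3. Factor peaks were resized to 300 bp and H3K4me3 peaks were collapsed to a union. The deposited files are lists of intervals without score or count, so a stricter peak threshold could not be tried and depth is unknown.

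From these, overlaps (1 bp or more), distances to curated RefSeq start sites (GRCm38.p6, the assembly of mm10), exon context, GC content and matches to 18 motifs were computed with Python 3.11.15, numpy 2.4.6, pandas 2.3.3, scipy 1.17.1 and pysam 0.24.0. A gene carried a peak when the midpoint lay within 1 kb of a protein-coding start site. Shares have Wilson, differences Newcombe and medians exact order-statistic intervals at 95%. Overlap and interval functions were tested on simulated data. Counts for 35 gene lists were compared with all genes without a list test. Genes were named as follows: all thyroid-list genes and up to 4 genes nearest their start in other lists, the genes and regions with most peaks, and genes leading each histone pattern by covered bases or width. The peaks, lists and rules were chosen with earlier results of these data known. 1 peak on an unplaced scaffold had no annotation. The rat lists, the H3K27me3 union and input libraries were not used here. Some genes of the lists are counted but not reported here by name.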

Additional observations from a re-analysis of the deposited data

How the results depend on the processing

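The peak set was rebuilt with an overlap of at least 150 bp, with midpoints, without any PAX8 peak within 1 kb, with H3K4me3 of WT-LID alone, with H3K4me3 in each of the 4 libraries, and with a union built anew. The number of NKX2.1-only peaks left the range of 1.5 times only with H3K4me3 in each library (2335). The share within 1 kb of a start site was 70%, 70%, 63.8%, 75% and 84.3% under the first 5, and 47.7% within 500 bp, 75.4% within 2 kb, 62.9% with protein-coding starts only and 71% with predicted transcripts. The median GC content was 54% with overlap of 150 bp and with midpoints, 54.3% with WT-LID and 55.7% with each library, and the NK2 core share was 20.3% and 19% in the last 2 and 10.8% in the central 100 bp. H3K27me3 in Glis3KO-LID was 2.24% with lists of equal length. The alternatives covered 12 differences between peak sets, for start sites, the NK2 core and H3K27me3, and none of these reversed its sign with an interval away from 0. Those for other motifs were not among them. The SP site changed its order against PAX8-only peaks within each GC band. The ETS share lay above that of PAX8-only peaks, with separate intervals, at 50 to 60% and 60 to 100% GC. Every difference from PAX8-only peaks for start sites, the NK2 core and H3K27me3 kept its side of 0 under the alternatives run, although with H3K4me3 in each library those for H3K27me3 were between -1.46 and -4.55 points. Against shared peaks the H3K27me3 difference in Glis3KO-LID reached 0 under 5 of them, at 0.401, 0.406, 1.23, 0.932 and 0.406 points. The NK2 core difference from shared peaks reached 0 under 3, at -2.4, -1.58 and -2.93 points, and that for H3K27me3 in WT-ND left 0 with no PAX8 peak within 1 kb, at 0.445 points. Causes were not tested. No paired analysis was possible because each group has 1 library and the labels give no replicate numbers. A single library per group leaves no replicate error, and unknown depth limits every absence of a peak.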
